A study of Homo sapiens with 6 samples.

Results

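The genes described here are the expressed human genes named ZNF plus a number, the naming series used for zinc finger proteins. FPKM is fragments per kilobase of exon, here scaled between libraries. Genes were selected on their name and on a mean of at least 2 FPKM over all libraries. This rule took 252 of the 479 ZNF entries and of the 58735 entries of the deposited table. Another 90 ZNF genes had a mean of 0.5 to under 2 FPKM, and 137 were below 0.5 FPKM. RNA sequencing was performed on SKOV3 cells, an established line from a human ovarian cancer, in 2 states with 3 libraries each. Floating spheres, titled stem cells by the submitters, had formed in ultra-low-attachment plates in DMEM/F12 with 2% B27, a serum replacement. The methods of the study also list EGF, bFGF and insulin for sphere culture. Sphere-differentiated cells, titled adherent cells, came from such spheres that were moved into DMEM with 10% FBS and attached to the dish. Medium, serum and attachment therefore changed together between the states, and no gene was altered in either. The labels do not say whether the 3 libraries of a state came from separate cultures, so the p-values measure the spread between these libraries. Fragment counts were recovered from the deposited FPKM and annotated exon lengths, over entries with a name of their own. They came to 14725462 to 16376331 per library. Of the line's epithelial markers, KRT8 was at 34.5 to 74.9 FPKM and ERBB2 at 6.56 to 10.2 FPKM, with overlapping states. KRT7, KRT18 and EPCAM were lower in every floating sphere library. Their means in sphere-differentiated cells and floating spheres were 562 and 148, 112 and 53.4, and 6.51 and 0.885 FPKM. PAX8 was higher in every floating sphere library, at 2.42 to 3.40 FPKM against 1.69 to 2.31 FPKM. KRT19 was at 0 in sphere-differentiated cells and at 3.22, 1.86 and 0 FPKM in floating spheres. The part of these genes in the ZNF values was not tested. PTPRC (blood cells), CDH5 (endothelium) and WT1 were at 0 in all 6 libraries. MUC16, the source of the ovarian tumour marker CA125, was at most 0.0499 FPKM. CD68 and CD3E (blood cells) and VWF (endothelium) were at most 0.136, 0.186 and 0.0590 FPKM. PECAM1, also an endothelial gene, was at 2.36 to 3.11 FPKM in sphere-differentiated cells and 4.63 to 7.41 FPKM in floating spheres. Of the fibroblast genes, COL3A1 was at 1.06 to 1.24 and 2.16 to 3.11 FPKM in the same order. DCN was at 0 and at 0.0916 to 0.210 FPKM, and COL1A1 overlapped (0.674 to 2.55 FPKM).

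Most ZNF proteins bind DNA through tandem C2H2 fingers, small folds in which 2 cysteines and 2 histidines hold a zinc ion. Many also carry a KRAB box, a short domain that binds the corepressor TRIM28. TRIM28 in turn brings the histone methyltransferase SETDB1 and heterochromatin proteins to the bound site, a route known for silencing transposable elements and imprinted loci. Other ZNF proteins carry a SCAN domain, used for pairing between proteins, and some have roles on ribosomes, spindles or RNA. KRAB genes lie in large clusters made by gene duplication, many of them on chromosome 19.

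The members were divided by the sequence of their encoded protein. By a rule of at least 7 of 11 core letters, a KRAB box was found in 136 members. A SCAN domain without such a match was found in 10. A box that differs more from the core is missed by this rule. Members called without KRAB are therefore those without a match, and 3 of them matched 6 letters, among them ZNF263 of the SCAN class. Another 95 had C2H2 fingers only, and 11 members without these domains had 0 or 1 finger of the canonical spacing. The median number of fingers was 12 in KRAB members and 7.5 in the other members. The KRAB class rests on a stretch of 75 coding bases, which is shown for the 6 KRAB members among those that moved most. Capitals mark the codons of the 11 positions compared with the KRAB core (GENCODE 29, hg38, 5′ to 3′). The first 4 belong to members that were lower in floating spheres and the last 2 to members that were higher.
ZNF777, chr7:149454130-149454204, minus strand: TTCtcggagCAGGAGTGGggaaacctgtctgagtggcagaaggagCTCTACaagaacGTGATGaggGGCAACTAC
ZNF460, chr19:57284584-57284658, plus strand: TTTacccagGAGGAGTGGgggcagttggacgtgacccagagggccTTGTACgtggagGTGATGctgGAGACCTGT
ZNF850, chr19:36762324-36762398, minus strand: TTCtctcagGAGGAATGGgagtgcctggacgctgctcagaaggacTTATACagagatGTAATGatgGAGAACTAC
ZNF791, chr19:12623733-12623807, plus strand: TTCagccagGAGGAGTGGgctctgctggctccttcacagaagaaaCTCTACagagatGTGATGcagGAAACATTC
ZNF83, chr19:52618955-52619029, minus strand: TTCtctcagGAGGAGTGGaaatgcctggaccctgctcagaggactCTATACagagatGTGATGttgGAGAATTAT
ZNF688, chr16:30571453-30571527, minus strand: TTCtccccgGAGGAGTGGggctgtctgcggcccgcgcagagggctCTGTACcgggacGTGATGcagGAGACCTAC
ZNF777 matched 9 and ZNF460 matched 10 of the 11 core letters, and the other 4 matched all 11. Among these 6 stretches, pairwise identity ran from 57.3% (ZNF777 and ZNF460) to 82.7% (ZNF850 and ZNF83). The closest pair thus joined a member that fell with one that rose. Reads shared by close copies of this family could be assigned to either copy or dropped, and the counting setting for such reads is not given in the sources used here.

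ZNF genes were on the whole lower in floating spheres than in sphere-differentiated cells. The summed level of the 252 members was 1828, 1876 and 1815 FPKM in sphere-differentiated replicates 1, 2 and 3, against 1283, 1289 and 1406 FPKM in floating sphere replicates 1, 2 and 3. All 3 floating sphere sums were below all 3 sphere-differentiated sums, and floating sphere replicate 3 was the nearest to the other state. As a share of all FPKM, members made up 0.730% ± 0.00961 (SD, n = 3) in sphere-differentiated cells and 0.4999% ± 0.0432 (SD, n = 3) in floating spheres. The plot of summed levels shows the same order in members with and without a KRAB box. In a bulk library, fewer cells that express a gene and less RNA of it per cell cannot be told apart.

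**Figure D1:**
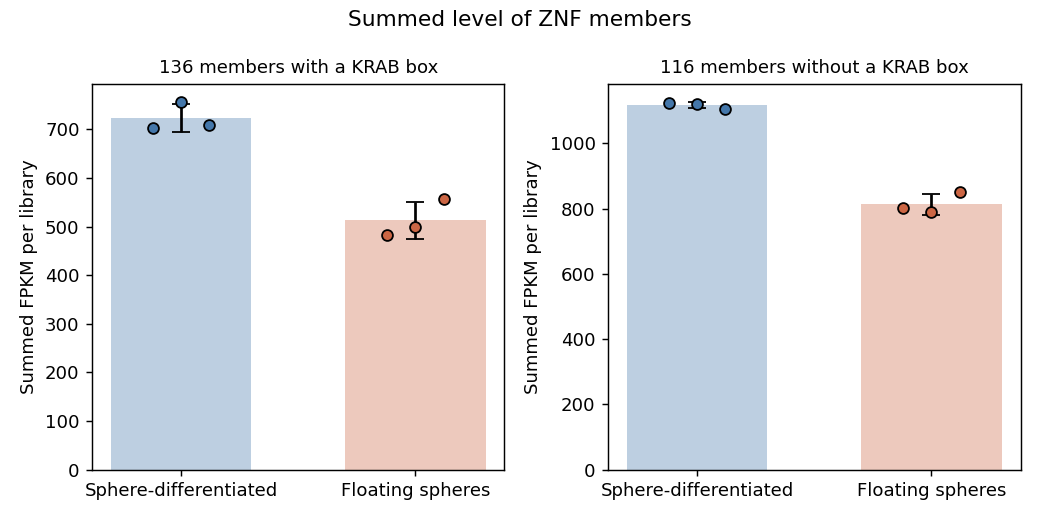
Summed FPKM (y axis) of the 136 members with and the 116 members without a KRAB box, in sphere-differentiated cells and floating spheres. Points are libraries, bars are means and error bars are SD (n = 3). KRAB members summed to 703 to 756 FPKM in sphere-differentiated cells and 483 to 556 FPKM in floating spheres. Members without KRAB summed to 1106 to 1124 FPKM and 789 to 850 FPKM.

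Gene by gene, 83 members were lower in floating spheres and 13 were higher at an adjusted p under 0.05 (limma on log2 of FPKM plus 0.5, Benjamini-Hochberg over 15719 genes). These are 32.9% and 5.16% of the members. Among all genes tested, 17.8% were called lower and 15.8% higher, and among the 10811 other genes at 2 FPKM or more the shares were 21.1% and 17.9%. Fewer members were called lower without sphere-differentiated replicate 1 (54), replicate 2 (41) or replicate 3 (38). Without sphere-differentiated replicate 2 or 3, 6 members were called higher. The groups did not overlap, with every floating sphere library below every sphere-differentiated library, in 127 members. The opposite separation was seen in 20 members. These are 50.4% and 7.94% of the members. Over all genes tested, 27.2% were separated downwards and 24.3% upwards, and among the other genes at 2 FPKM or more 31.1% and 25.6%. By the study's own threshold, a log2 fold change beyond 0.5 in size at a p below 0.05 before adjustment, 89 members were lower and 15 higher. These are 35.3% and 5.95% of the members. The background was 19.9% and 19.5% of all genes tested, and 22.5% and 20.3% of the other genes at 2 FPKM or more.

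The median log2 fold change of the members, floating spheres over sphere-differentiated cells, was -0.33, and their quartiles were -0.69 and -0.04. For the other genes at 2 FPKM or more, the median was -0.04 with quartiles of -0.48 and 0.44. A negative value was found in 197 of the 252 members and in 5666 of the 10811 other genes. The members thus differed from the other genes mostly on the upper side, as the plot of fold changes shows. The 90 ZNF genes at 0.5 to under 2 FPKM had a median of -0.25, with 1 called higher and 15 lower. No call was made for 156 members, of which 142 had a fitted value between -0.5 and 0.5. The smallest called difference was 0.45 in size, and the median SE of a member's log2 fold change was 0.17. A total of 24 members fell by at least 1 on the log2 scale, and 7 rose by at least 1.

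**Figure D2:**
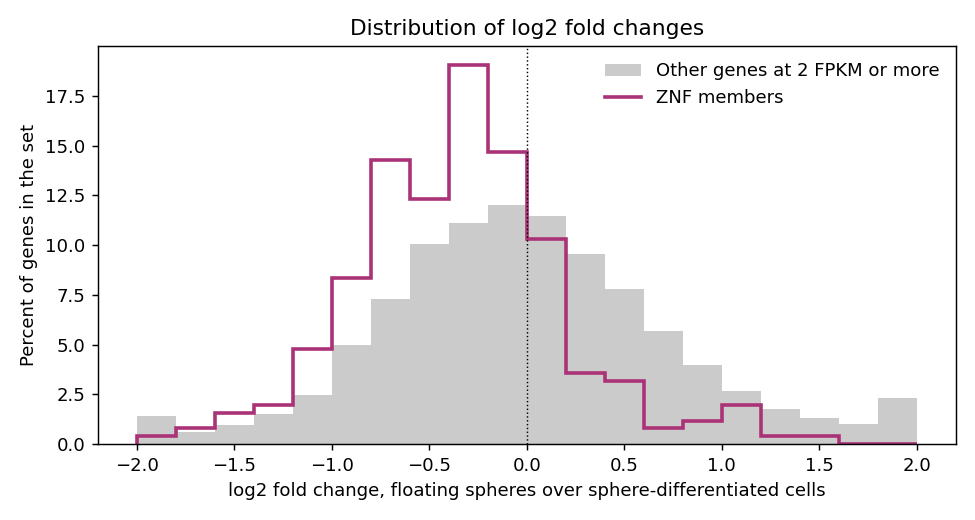
Percent of genes (y axis) by log2 fold change of floating spheres over sphere-differentiated cells (x axis, bins of 0.2, with larger changes counted in the end bins), for the 252 ZNF members (line) and the 10811 other genes at 2 FPKM or more (grey). The members' distribution sits to the left, with a median of -0.33 against -0.04.

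The rule used the mean level, so the members nearest to 2 FPKM show what a small change of the limit would take. Just inside were ZNF684, ZNF175 and ZNF70, with means of 2.01, 2.03 and 2.04 FPKM and log2 fold changes of -0.16, -0.18 and -0.34. Just outside were ZNF699, ZNF613 and ZNF516, with means of 1.96, 1.95 and 1.94 FPKM and log2 fold changes of -0.42, -0.48 and -1.11.

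The largest fall was in ZNF770 (chr15:34978341-34988287, minus strand), a protein of 11 fingers without KRAB. It was at 30.1, 42.3 and 33.1 FPKM in sphere-differentiated cells and at 8.53, 7.20 and 11.4 FPKM in floating spheres. Every floating sphere library was thus far below the lowest sphere-differentiated library. The log2 fold change was -1.91 (SE 0.20, limma adjusted p = 0.00126), and 31.9% of its exon bases also lie in exons of other genes. ZNF664 (chr12:123971845-124015439), with 9 fingers, was one of the 6 most abundant members. It fell from 44.8, 52.8 and 50.4 FPKM to 17.8, 12.6 and 16.2 FPKM, a log2 fold change of -1.65 (SE 0.16, limma adjusted p = 0.00103).

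ZNF777 (chr7:149431363-149461123, minus strand), a KRAB member, was at 38.1, 32.8 and 32.9 FPKM in sphere-differentiated cells. In floating spheres it was at 10.3, 7.60 and 15.8 FPKM, again without overlap (log2 fold change -1.64). ZNF460, ZNF850 and ZNF791, the other KRAB members whose boxes are printed above, had log2 fold changes of -1.53, -1.44 and -1.32. ZNF791 was at 16.9 to 20.01 FPKM in sphere-differentiated cells and 5.46 to 8.31 FPKM in floating spheres. The large fall of ZNF469, a gene mutated in brittle cornea syndrome, was -1.59 on the same scale. ZNF467, which promotes adipocyte differentiation in mouse, was at 3.70, 3.95 and 4.78 FPKM in sphere-differentiated cells. In floating spheres it was at 0.371, 1.59 and 2.09 FPKM. Its call (log2 fold change -1.46, limma adjusted p = 0.0244) was lost when any sphere-differentiated library was left out (adjusted p from 0.058 to 0.083) and without the filter on low genes (0.072). Its lowest library held 17 fragments, the fewest of any member.

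**Figure D3:**
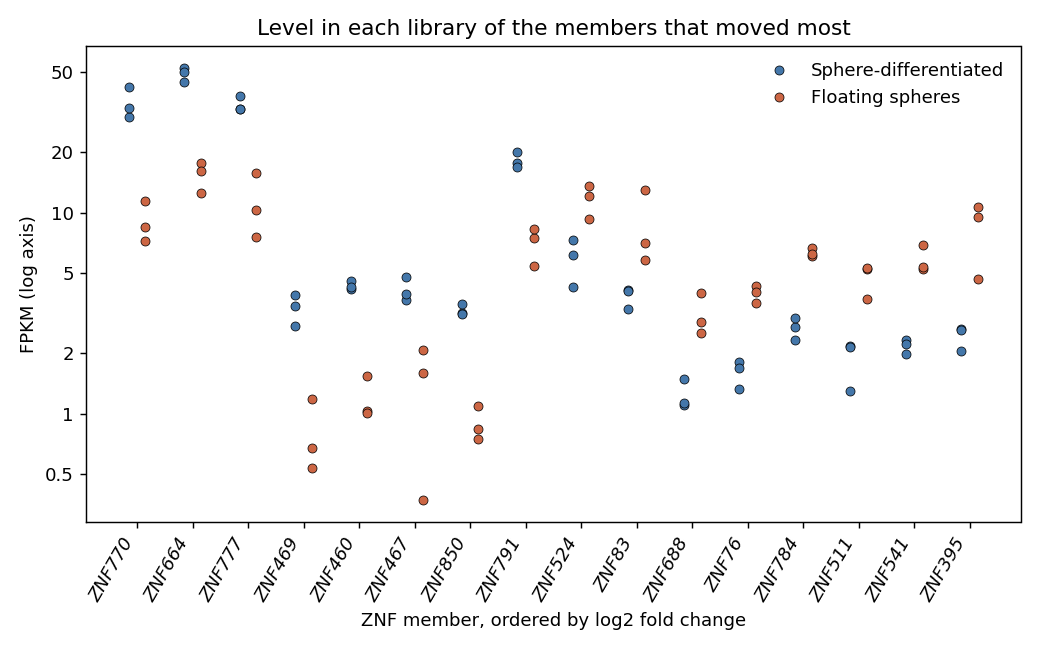
FPKM (y axis, log scale) in each of the 6 libraries for the 8 members with the largest fall and the 8 with the largest rise among those called without overlap (x axis, ordered by log2 fold change). The states are separate in all 16 members, as the choice of members required.

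Among the 8 with the largest rise, ZNF395, known for its induction at low oxygen, came first. Its level was 2.64, 2.05 and 2.62 FPKM in sphere-differentiated cells and 4.68, 10.7 and 9.52 FPKM in floating spheres, with replicate 1 lowest. The log2 fold change was 1.51 (SE 0.29, limma adjusted p = 0.00792), and 34.9% of its exon bases are shared with other genes. ZNF541, a germ cell gene needed for meiosis in mouse, rose from 2.33, 1.98 and 2.23 FPKM to 5.28, 5.36 and 6.90 FPKM (log2 fold change 1.24). The rise of ZNF511 was 1.16, and 46.8% of its exon bases overlap other genes. ZNF784 went from 2.34 to 3.01 FPKM up to 6.08 to 6.70 FPKM, a log2 fold change of 1.11. ZNF76, the paralogue of the promoter-binding activator ZNF143, rose by 1.08, whereas ZNF143 itself was at 6.65 to 6.82 FPKM and 6.02 to 7.45 FPKM, which overlap (log2 fold change -0.05). ZNF524, a telomere-binding protein, had a log2 fold change of 0.94. Without sphere-differentiated replicate 2 or 3 its adjusted p was 0.053.

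The KRAB members called higher were 3, namely ZNF688, ZNF83 and ZNF517. This count was 8 with the correction for GC content and length, 6 with voom on recovered fragments and 5 on protein-coding genes. It fell to 2 when floating sphere replicate 3 or sphere-differentiated replicate 1 was left out, and to 1 without sphere-differentiated replicate 2 or 3 or without the filter on low genes. ZNF83 was at 3.30, 4.12 and 4.10 FPKM in sphere-differentiated cells and at 5.86, 13.1 and 7.07 FPKM in floating spheres. Floating sphere replicate 2 stood well above the other 2. The call (log2 fold change 1.00, limma adjusted p = 0.0288) was lost when any sphere-differentiated library was left out (adjusted p from 0.073 to 0.090) and without the filter on low genes (0.075). ZNF688, with 2 fingers, had a log2 fold change of 1.04 (SE 0.20). ZNF517, named after its values were seen, was at 2.75 to 3.85 FPKM and 4.79 to 7.81 FPKM.

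Beyond these, a set of members named after their values were seen kept their direction and call in each of the 18 alternative fits. ZNF778, a KRAB member, was at 7.82, 7.81 and 8.47 FPKM in sphere-differentiated cells and at 3.00, 2.82 and 3.01 FPKM in floating spheres, among the tightest values of the family (log2 fold change -1.31). ZNF48 fell from 7.25, 5.40 and 6.18 FPKM to 2.15, 2.05 and 2.58 FPKM (log2 fold change -1.29). ZNF800, ZNF35 and ZNF322, all with C2H2 fingers only, fell by 1.25, 1.10 and 1.04 on the log2 scale. ZNF436, a KRAB member on chromosome 1, was at 12.9 to 14.9 FPKM and 5.95 to 7.42 FPKM, which did not overlap. ZNF304, a KRAB protein that recruits silencing factors to tumour suppressor genes in colorectal cancer cells, was at 3.92 to 4.27 FPKM and 1.98 to 2.15 FPKM (log2 fold change -0.83). ZNF131, which carries a BTB domain, had values of 19.7, 23.8 and 19.9 FPKM against 13.8, 11.1 and 13.1 FPKM (log2 fold change -0.72). In all, 36 members were lower and 6 were higher in each of these fits. The 6 were ZNF395, ZNF511, ZNF541, ZNF688, ZNF76 and ZNF784. The other called rises were smaller, among them ZNF341, an activator of STAT3 transcription, at 2.01 to 2.64 FPKM and 3.48 to 5.72 FPKM (log2 fold change 0.74), ZNF692 (0.87) and ZNF414 (0.66).

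The most abundant member was ZNF622, which binds the large ribosomal subunit during its late maturation. It was at 102.1, 78.3 and 91.0 FPKM in sphere-differentiated cells and at 46.8, 37.7 and 40.6 FPKM in floating spheres, so the states lay far apart (log2 fold change -1.10, SE 0.16, limma adjusted p = 0.00301). ZNF598, a ubiquitin ligase that senses collided ribosomes, also fell, from 39.2 to 46.1 FPKM down to 22.9 to 28.9 FPKM (log2 fold change -0.69). ZNF146, a protein made almost wholly of fingers, fell by 1.22 on the log2 scale. The oncogene ZNF217, which lies in the amplified region 20q13 of breast and ovarian tumours, was at 23.7, 32.2 and 25.4 FPKM and at 15.9, 23.4 and 20.1 FPKM. Its states did not overlap, but the difference missed the threshold (log2 fold change -0.45, limma adjusted p = 0.104).

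Transcription factors with known targets moved unevenly. ZNF281, a repressor linked to epithelial-mesenchymal transition, was at 16.8, 19.1 and 17.2 FPKM in sphere-differentiated cells and at 7.36, 9.97 and 7.86 FPKM in floating spheres. These values do not overlap (log2 fold change -1.04). ZNF148, its close relative with 4 fingers, fell by 0.91 on the log2 scale. ZNF644, a partner of the histone methyltransferases EHMT1 and EHMT2, had a log2 fold change of -0.63, and its adjusted p was 0.066 and 0.074 without sphere-differentiated replicates 2 and 3. ZNF335, a component of a histone H3K4 methyltransferase complex, was higher, at 8.67 to 10.1 FPKM against 5.98 to 6.68 FPKM (log2 fold change 0.54). Its adjusted p was 0.061 and 0.080 without the same libraries. ZNF330, a nucleolar protein, was called lower (log2 fold change -0.61, limma adjusted p = 0.0267) but lost its call in 7 of the 18 alternative fits. Among them were those without any single sphere-differentiated library and without floating sphere replicate 1 or 3 (adjusted p from 0.055 to 0.095).

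Several members with established functions passed no threshold. ZNF207, which loads the checkpoint protein BUB3 at kinetochores, was at 8.03 to 10.4 FPKM and 10.2 to 12.9 FPKM, which overlap (log2 fold change 0.38, limma adjusted p = 0.0985). With the correction for GC content and length it was called higher (0.70, adjusted p = 0.0087). ZNF274, a KRAB protein that brings SETDB1 to other ZNF genes, was at 8.26 to 8.66 FPKM and 6.79 to 8.79 FPKM (log2 fold change -0.17). The SCAN proteins ZNF24 and ZNF263 had log2 fold changes of -0.30 and -0.27. ZNF687 and ZNF592, which sit in a common complex with ZMYND8, were at -0.21 and -0.14. For ZNF451, a SUMO ligase, the value was -0.24, and for ZNF638, which helps the HUSH complex silence retroviral DNA, it was -0.23. ZNF703, a luminal breast cancer oncogene, and its relative ZNF503 were at 0.04 and -0.59, the latter with an adjusted p of 0.134. ZNF326, which acts in splicing-coupled elongation, was at -0.32 and was called lower only when floating sphere replicate 1 was left out (log2 fold change -0.55, adjusted p = 0.0216). ZNF292, ZNF384 and ZNF706 had values of 0.18, -0.12 and -0.33 without a call.

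The number of fingers ran from 0 to 31. The 3 members with 31 fingers were ZNF142, ZNF236 and ZNF646, with log2 fold changes of -0.84, 0.03 and -0.30. Only ZNF142 was called, and it missed the threshold without sphere-differentiated replicate 2 or 3 (adjusted p of 0.052 and 0.054). The 5 members without a canonical finger were ZNF330, ZNF503, ZNF839, ZNF738 and ZNF703. Between these ends, members with 2 to 5 fingers had a median of -0.08 (6 higher and 8 lower of 43). Those with 10 to 13 fingers had a median of -0.47, and 36 of 72 were lower. With 14 or more fingers the median was -0.30, so the values did not follow the number of fingers in one direction.

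By protein class, 48 of 136 KRAB members were lower and 3 higher, with a median of -0.37. Without sphere-differentiated replicates 1, 2 and 3, the number lower was 28, 20 and 19. Members with C2H2 fingers only had 30 lower and 9 higher of 95 (median -0.30). Of the 10 SCAN members, 1 was lower and none higher (median -0.24), and of the 11 members with 0 or 1 finger, 4 were lower and 1 higher (median -0.37). All 4 classes thus had a negative median, and no difference between them was tested. KRAB members on chromosome 19 had a median of -0.45 (30 lower and 1 higher of 77), against -0.22 for KRAB members elsewhere (18 lower and 2 higher of 59). The 27 members on chromosome 19 without KRAB had a median of -0.15. The 674 other genes on chromosome 19 at 2 FPKM or more went the other way, with a median of 0.19, 178 higher and 78 lower.

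The shift of the members was found at every level of expression. In the band of 2 to 4 FPKM the median was -0.27 for members and 0.04 for other genes. From 4 to 8 FPKM it was -0.35 against -0.07, and from 8 to 16 FPKM it was -0.56 against -0.10. The 13 members at 16 FPKM or more had a median of -0.69 against -0.03, and 8 of these 13 were lower and none higher. The members' medians thus fell from band to band. Those of other genes also fell up to the band of 8 to 16 FPKM, but not in the highest band. On the scale used, 0.5 FPKM is added before the logarithm, which lessens the change of low genes most.

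GC content moved with the result. It was taken from the exons of the longest annotated transcript of each gene, not from all its exons. The median GC content was 45.2% in members, against 48.7% in other genes. Other genes of low GC were also lower in floating spheres. Below 40% GC, the medians were -0.37 for 52 members and -0.31 for 1682 other genes, which is nearly the same shift. From 40 to 45% they were -0.46 and -0.22, from 45 to 50% they were -0.38 and -0.11, and from 50 to 55% they were -0.23 and 0.02. At 55% or more, the medians were -0.17 for 64 members and 0.27 for 3237 other genes. Of the 13 members called higher, 11 were in this last band. After a correction for GC content and exon length over all genes, the median of the members was -0.22 and that of the other genes -0.0022. With this correction 77 members were lower and 20 higher, and 63 of the 83 lower calls were shared. The medians of KRAB members and of the rest became -0.19 and -0.23, so that the order of the classes turned.

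**Figure D4:**
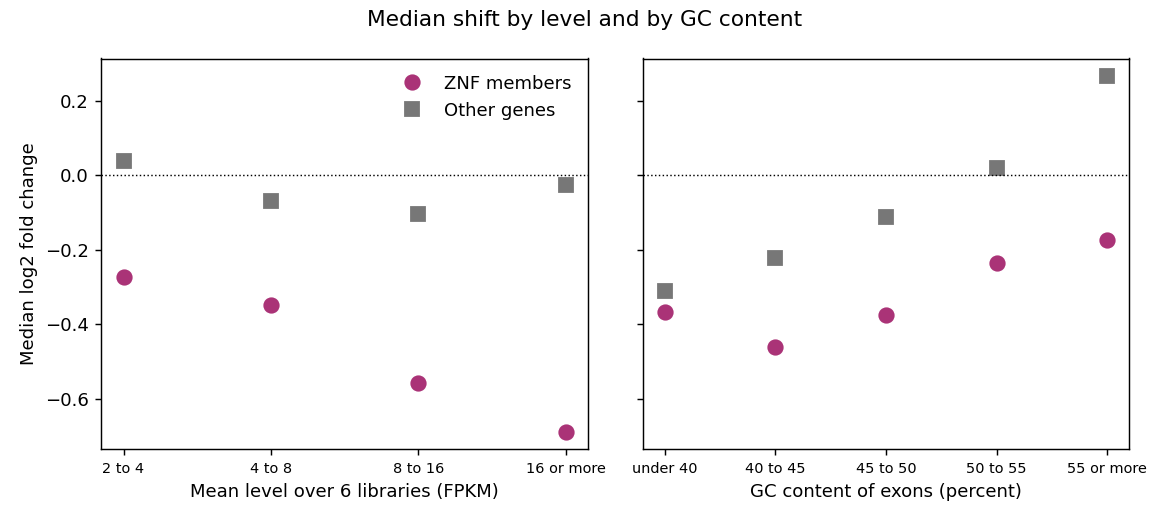
Median log2 fold change (y axis) of ZNF members (circles) and of other genes at 2 FPKM or more (squares). Genes are banded by mean level in FPKM (left) and by GC content in percent of the exons of the longest transcript (right). The members' median is below that of the other genes in every band, by least under 40% GC (-0.37 against -0.31).

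Neighbouring ZNF genes were compared next, since the family lies in clusters. Protein-coding ZNF genes at most 250000 bases apart were chained, a rule chosen after the data had been seen, and chains with at least 4 members gave 13 groups with 116 members. Each group is called here by its member with the lowest log2 fold change. The lowest median was that of the ZNF777 group (chr7:149069643-149497817), where 6 of 7 members were lower and the median was -0.92. All 7 carry a KRAB box. ZNF786, ZNF746, ZNF398, ZNF212 and ZNF783 had log2 fold changes of -1.18, -1.003, -0.92, -0.90 and -0.80. ZNF282, in the middle of the group, was at 18.6 to 23.7 FPKM and 15.5 to 22.1 FPKM, which overlap (log2 fold change -0.22). The exons of this group had a median GC content of 56.7%, well above that of the members as a whole.

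In the ZNF791 group (chr19:11483427-12640098), 8 of 11 members were lower and the median was -0.84. ZNF441, for example, was at 4.76, 5.96 and 4.82 FPKM in sphere-differentiated cells and at 1.81, 2.40 and 2.00 FPKM in floating spheres. The only positive value of the group was that of ZNF653 (0.05), which has no KRAB box and lies at the group's edge. The ZNF850 group (chr19:36182060-37817300) had 4 of 7 lower and a median of -0.69. The ZNF460 group (chr19:57191500-58481230) had 13 of 24 lower, a median of -0.48 and a negative value in 23 members. The number lower without sphere-differentiated replicates 1, 2 and 3 was 3, 4 and 3 in the ZNF777 group and 5, 3 and 4 in the ZNF791 group. In the same order it was 4, 2 and 2 in the ZNF850 group and 8, 5 and 5 in the ZNF460 group. The count was thus unchanged in the ZNF850 group without replicate 1 and smaller otherwise. With the correction for GC content and length, 6, 4, 3 and 12 members of these groups were lower, and their medians were -0.92, -0.61, -0.42 and -0.46.

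Other groups had medians nearer to 0. The ZNF180 group (chr19:43525497-44500524) had 1 of 13 lower and a median of -0.09 (0.0082 with the correction for GC content and length). The ZNF525 group (chr19:51571298-53580269), which holds ZNF83, had 3 lower and 1 higher of 12 and a median of -0.24, which the same correction turned to 0.0022. In the ZNF628 group (chr19:55476332-55645622) the median was 0.28, none of the 7 members carries KRAB, and ZNF784 and ZNF524 were higher. Its exons had a median GC content of 64.9%, and its median was -0.10 without floating sphere replicate 2 and -0.013 with the correction for GC content and length. Medians of the remaining 6 groups were -0.45 (ZNF121), -0.33 (ZNF597), -0.32 (ZNF430), -0.20 (ZNF48), -0.19 (ZNF736, 0.066 with the correction) and 0.0037 (ZNF16). The 136 members outside the 13 groups had a median of -0.29, with 40 lower and 8 higher. Other genes at 2 FPKM or more between the ends of a group, without ZNF, ZSCAN, ZKSCAN or ZFP names, were few. Their medians were -1.10 (ZNF850 group, 2 genes), -0.46 (ZNF460, 8), -0.46 (ZNF121, 1), -0.41 (ZNF791, 4) and -1.16 (ZNF736, 2). They were 0.76 (ZNF525, 5), 0.75 (ZNF180, 7), 0.34 (ZNF628, 4), 0.11 (ZNF430, 2), -0.03 (ZNF48, 6) and -0.0012 (ZNF16, 2). The ZNF777 and ZNF597 groups held none. A shared shift was not tested.

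**Figure D5:**
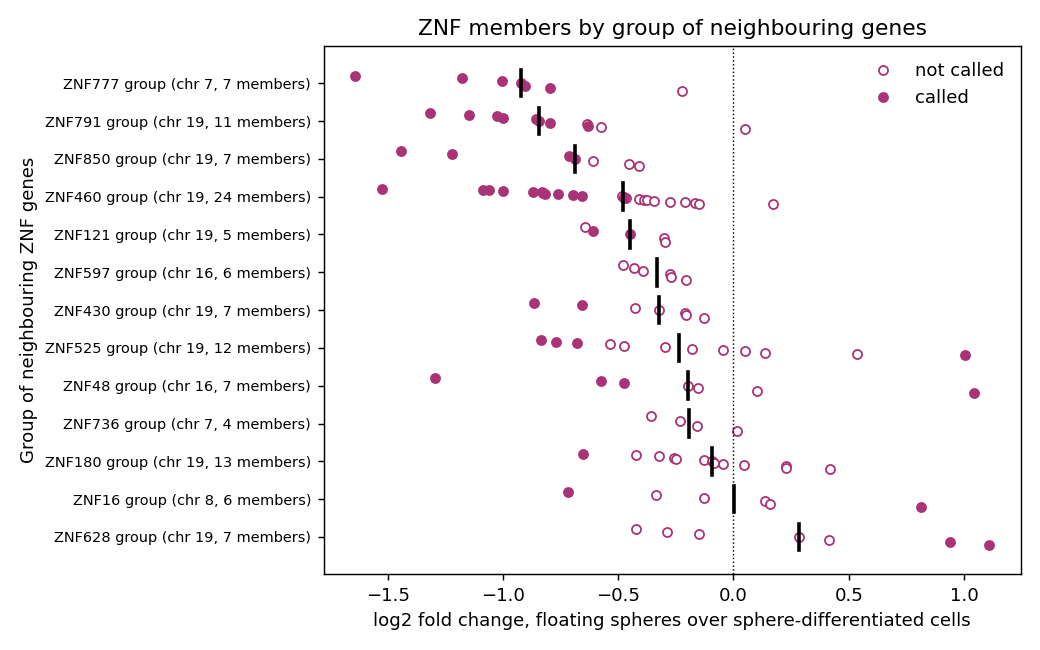
Log2 fold change of floating spheres over sphere-differentiated cells (x axis) for the 116 members in 13 groups of neighbouring ZNF genes (y axis). Points are members, filled where the adjusted p was under 0.05, and bars are group medians, from -0.92 in the ZNF777 group to 0.28 in the ZNF628 group.

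Promoter sequences from RefSeq (GRCh38.p14) were matched to 219 members, with 280 windows since some genes have several starts. The 250 bases before the start are printed for the 2 members of the ZNF791 group with the largest fall, for the abundant ZNF622 and for ZNF541, which rose. Capitals mark the letters CCAAT and CCGGAAG, searched on both strands, which are the cores of the CCAAT box and of a common ETS factor site.
ZNF791, chr19:12610670-12610919, plus strand: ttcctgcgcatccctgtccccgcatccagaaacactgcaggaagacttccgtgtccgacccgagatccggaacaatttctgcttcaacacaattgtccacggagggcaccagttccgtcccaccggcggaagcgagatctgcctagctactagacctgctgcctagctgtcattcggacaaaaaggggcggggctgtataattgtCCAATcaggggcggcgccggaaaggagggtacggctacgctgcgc
ZNF441, chr19:11766750-11766999, plus strand: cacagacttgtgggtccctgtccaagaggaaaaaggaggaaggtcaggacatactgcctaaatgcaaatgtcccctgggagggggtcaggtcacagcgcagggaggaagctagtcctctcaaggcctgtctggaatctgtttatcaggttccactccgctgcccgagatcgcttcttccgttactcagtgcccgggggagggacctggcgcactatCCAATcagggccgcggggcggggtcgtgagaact
ZNF622, chr5:16465801-16466050, minus strand: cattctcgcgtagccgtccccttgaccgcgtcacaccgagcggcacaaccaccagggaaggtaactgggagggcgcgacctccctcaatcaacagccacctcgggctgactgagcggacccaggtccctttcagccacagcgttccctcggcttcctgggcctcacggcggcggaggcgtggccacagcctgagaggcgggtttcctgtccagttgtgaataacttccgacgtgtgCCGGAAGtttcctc
ZNF541, chr19:47573149-47573398, minus strand: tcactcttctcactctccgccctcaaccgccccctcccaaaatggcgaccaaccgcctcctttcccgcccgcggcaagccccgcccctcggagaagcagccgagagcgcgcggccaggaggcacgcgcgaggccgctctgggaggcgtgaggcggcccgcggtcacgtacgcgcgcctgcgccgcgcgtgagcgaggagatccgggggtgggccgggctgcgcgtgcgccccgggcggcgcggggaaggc
ZNF791 and ZNF441 each hold a CCAAT match, ZNF622 holds a CCGGAAG match, and ZNF541 holds neither. The ZNF541 window precedes a RefSeq start that lies outside the GENCODE 29 gene that was measured (chr19:47520685-47555856, minus strand). In the ZNF791 group, CCAAT was found in 10 of 13 windows, and the longer CCAATCAG in 8 of 13. The ZNF777 and ZNF850 groups, which also had low medians, held CCAAT in 1 of 6 and 1 of 11 windows and CCAATCAG in none. The longer letters were in 17.3% of windows of KRAB members, 4.62% of those of members without KRAB, 4.47% of 11285 windows of other genes at 2 FPKM or more, and 3.81% of all 35116 windows. CCAAT alone was in 40.7% of member windows (48.0% for KRAB members), 33.2% of those of other expressed genes and 32.0% of all. CCGGAAG was in 27.5% of member windows, 15.1% of those of other expressed genes and 8.52% of all. Among members called lower and members without a call, CCGGAAG was in 26.3% and 28.6% and CCAAT in 40% and 42.9% of windows, so these shares lay close together. The 10 windows of 9 members called higher held CCAAT in 1, CCGGAAG in 2 and CCAATCAG in 0. These windows are too few to compare with the others.

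Of 30 tested cofactors through which KRAB proteins act, 5 were higher and 4 lower, and the median was 0.09. These are 16.7% and 13.3% of the list, near the 15.8% and 17.8% of all genes tested, so the counts show nothing particular to the cofactors. Only 1 was higher when floating sphere replicate 3 or sphere-differentiated replicate 2 or 3 was left out. The count was 2 without sphere-differentiated replicate 1 and 8 without floating sphere replicate 2. Without sphere-differentiated replicate 3, 2 were lower. TRIM28 was at 177.4, 153.6 and 154.5 FPKM in sphere-differentiated cells and at 142.9, 95.1 and 175.2 FPKM in floating spheres, which overlap (log2 fold change -0.27, limma adjusted p = 0.397). SETDB1 was at 2.96, 3.33 and 3.36 FPKM and at 4.49, 5.00 and 4.53 FPKM. The states did not overlap (log2 fold change 0.48, limma adjusted p = 0.028), but the call was lost in 6 of the 18 alternative fits. Among them were those without any single sphere-differentiated library and without floating sphere replicate 3 (adjusted p from 0.052 to 0.104). ATF7IP, which stabilises SETDB1, fell from 10.6 to 13.97 FPKM down to 4.48 to 6.18 FPKM (log2 fold change -1.11). The HUSH subunit TASOR, listed as FAM208A, was higher by 0.90 on the log2 scale, and its paralogue TASOR2, listed as FAM208B, fell by 1.21. TRIM33, a relative of TRIM28, fell by 0.65, with an adjusted p of 0.054 without sphere-differentiated replicate 3.

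Among zinc finger genes of other name series, lower calls also outnumbered higher ones. Of 50 ZBTB, ZSCAN, ZKSCAN and ZFP genes at 2 FPKM or more, 15 were lower and 1 was higher, with a median of -0.38. These are 30% and 2% of the 50, against 21.1% and 17.9% of the other genes at 2 FPKM or more. The 28 ZBTB genes, which carry a BTB domain in place of KRAB, had 7 lower and 1 higher (median -0.25). That is 25% lower, near the share of the other genes, and 3.57% higher. All 6 ZSCAN and all 5 ZKSCAN genes had negative values, with 3 and 2 of them called.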

How the data were processed

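Values were deposited by the authors as FPKM per gene and library. The submitters' notes name hg38, featureCounts 1.5.0-p3 and DESeq2 1.20.0, and the study's methods name featureCounts and edgeR. No source used here gives the aligner, the annotation release or the strand setting. Median-of-ratios factors of the deposited values were equal in all libraries, so scaling of that kind between libraries had already been applied. Deposited FPKM times GENCODE 29 exon length gave whole fragments within 0.01 for all values with a known length. Of 2 entries named ZNF503, only the protein-coding one gave whole fragments and a level above 0.

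All genes averaging 0.5 FPKM or more entered the test with limma 3.58.1 (R 4.3.3), run on log2(FPKM + 0.5) with group as the only term and a trend in the moderation. This scale understates the change of low genes. Classes came from translated GENCODE coding sequences, with at least 7 of 11 KRAB letters or 11 of 15 SCAN letters. Overlapping exons made up over 10% of the length in 54 members, 17 of them called.

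The members and lists were chosen with earlier results of these data known. Named members were the 8 largest called changes per direction without overlap, the 6 highest, those at the limit of 2 FPKM, those with most and fewest fingers, and those of a list of known roles. ZNF516, ZNF613, ZNF699 and the members named for their neighbour group or as the remaining KRAB rise were taken by position or after their values were seen. Alternatives changed the pseudocount, filter, scaling, moderation, replicate term, gene types, measure (voom on recovered fragments), GC and length correction, or left out each library.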

Additional observations from a re-analysis of the deposited data

How the results depend on the processing

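Across 18 alternative fits, the median of the members stayed negative, from -0.44 to -0.22. It was -0.44 on TPM, where the median of other genes at 2 FPKM or more was -0.12, and -0.22 after the correction for GC content and length, where 20 members were higher. Leaving out single libraries gave medians of -0.37 to -0.30, 38 to 80 members lower and 6 to 15 higher. Over all genes, leaving out a sphere-differentiated library left 1448 to 1829 genes lower, and the counts ran from 1448 to 2827 lower and 1318 to 2496 higher over all single libraries. With a mean of at least 5 FPKM asked of members, 106 remained, with 45 lower, 5 higher and a median of -0.43. Of 972 refits of 54 named genes, 935 kept their side of the threshold, 31 lost and 6 gained a call, and 0 reversed. Among the 18 fits, median-of-ratios scaling divided every library by the same factor, 1.00881. That fit therefore nearly repeated the main one and is no separate check. The correction for GC content and length gave calls to ZNF207, ZNF263, ZNF503 and ZNF646 and took those of ZNF330 and ZNF644. Medians of neighbour groups reversed after the correction for GC content and length in the ZNF525 (0.0022), ZNF736 (0.066), ZNF180 (0.0082) and ZNF628 (-0.013) groups, and without floating sphere replicate 2 in the ZNF628 group (-0.096, against 0.389 without replicate 3); the cause was not tested. Same-numbered libraries deviated with correlations of -0.07 to -0.02, so they showed no shared deviation. Whether same-numbered samples came from the same spheres cannot be told from these values. With a replicate block, 72 members were lower and 12 higher. In depth, the lowest value of a member was 17 fragments, and the median member had 324 to 406 fragments per library.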

Other observations

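Within floating spheres, replicate 3 was the highest library for 119 of the 252 members and the lowest for 40, whereas replicates 1 and 2 were the lowest for 105 and 107. Within sphere-differentiated cells, replicate 2 was the highest for 144. MKI67, a marker of proliferating cells, was at 19.6, 25.8 and 22.7 FPKM in sphere-differentiated cells and at 42.1, 22.97 and 33.8 FPKM in floating spheres, and its part in the ZNF values was not tested.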
